A study of Mus musculus with 2 samples.

Results

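The genes described here are the 83 that encode proteins of the cytosolic ribosome, chosen by symbol from the 32285 gene rows of the 2021 library. The rule took symbols made of Rpl or Rps, a number and at most a short suffix, plus Rpsa, Rplp0, Rplp1 and Rplp2, and used no measured value. It gave 51 genes of the large subunit and 32 of the small subunit. Of these, 80 reached 50 CPM over all kept cells (counts per 1000000; a UMI is a barcode that lets each captured mRNA molecule be counted a single time), 3 lay below that level, and 1 of the 3, Rpl10l, had no UMI.

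The study sorted CD64-positive cells from the thymus of adult mice of the strain C57BL/6 (C57BL/6J in the series' design text) and profiled single cells with a 10x Genomics 3′ kit. CD64 is the high-affinity IgG receptor of macrophages and monocytes, and the thymus is the organ where T cells mature. There was 1 group, with no treatment or genotype contrast, and it held a library from 2021 and a library from 2024. How many animals gave each library is not given in the sources used here. All gene-level values come from the 2021 library, because no gene list was used for the 33696 rows of the 2024 library. With 1 library there is no replicate error and no test, so all intervals are exact 95% intervals that cover counting error only.

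The ribosome is the machine that translates mRNA into protein. Its small subunit decodes the mRNA and its large subunit joins the amino acids, and each ribosomal protein is present as a single copy per ribosome apart from the stalk proteins Rplp1 and Rplp2. The mRNAs of these proteins are among the most abundant of most cells. Most begin with a tract of pyrimidines (C and T) at the 5′ end, the terminal oligopyrimidine or TOP tract, through which the mTOR pathway and Larp1 control their translation together.

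The start sites of 9 genes on which the results below turn are shown to let the tract be seen or missed. RefSeq (GRCm38.p6, the assembly also called mm10, which the submitters' processing notes name) gave a start for 63 of the 83 genes. Each line holds 30 bases on the gene's own strand, the 10 before the annotated start and the 20 from it onward. Capitals mark the part of an unbroken run of at least 8 C or T letters that falls in the window. The first 5 have a run there and the other 4 do not.
Rps27, chr3:90213629-90213658 (minus strand): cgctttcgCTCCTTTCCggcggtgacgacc
Rps27l, chr9:66946076-66946105 (plus strand): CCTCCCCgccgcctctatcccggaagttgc
Rps9, chr7:3704031-3704060 (plus strand): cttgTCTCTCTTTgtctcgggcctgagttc
Rpl22l1, chr3:28805498-28805527 (plus strand): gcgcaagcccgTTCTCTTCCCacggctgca
Rpl39, chrX:37085203-37085232 (minus strand): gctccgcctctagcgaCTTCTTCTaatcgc
Rpl12, chr2:32961702-32961731 (plus strand): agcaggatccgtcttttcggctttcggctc
Rps28, chr17:33824543-33824572 (minus strand): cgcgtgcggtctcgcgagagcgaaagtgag
Rpl5, chr5:107900518-107900547 (plus strand): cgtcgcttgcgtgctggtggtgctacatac
Rpl3l, chr17:24727816-24727845 (plus strand): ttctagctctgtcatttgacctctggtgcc

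A run of at least 8 overlapped this window in 31 of the 63 genes (49.2%) and in 5197 of all 27025 genes of the table (19.2%). With a run of at least 10 the shares were 39.7% and 9.75%. A gene counted if any of its annotated starts had a run, with 75 starts for the 63 genes. The run in Rps27l begins before its window, so that only its last letters are printed, and it ends before the annotated start. A second annotated start of Rps27l, at chr9:66946413, had no run. An annotated start can lie some bases from the start used in these cells, and a missing run says only that these letters are not in this window.

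The 2021 library held 3214 barcodes and 8534578 UMIs, and the 2024 library 2815 barcodes and 24569270 UMIs, with median depths of 2157.5 and 5312 UMIs per barcode. In the 2021 library 3185 cells passed the filters and doublet removal, and they formed 15 clusters when the 83 genes were left out of the clustering. The clusters were named from marker genes, which gave 9 classes, 7 of them with at least 50 cells, and 52 cells led by histone and cell cycle genes stayed unnamed. The labels call the cells macrophages. Only 380 cells (11.9%) were macrophage-like, with C1qa, C1qb, C1qc and Vcam1 among the leading genes. The others were conventional dendritic cell-like (846 cells), neutrophil-like (502), monocyte-like (499), T lineage-like (381) or natural killer (NK) and innate lymphoid-like (299). B lineage-like cells numbered 205, mast cell and basophil-like cells 11 and plasma cell-like cells 10. The dendritic cell-like name was less firm, since many of these cells lost it at a finer clustering resolution, described below.

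Ribosomal protein genes supplied 1861879 of the 8505574 kept UMIs, a share of 21.9% (21.9 to 21.9). The share was highest in B lineage-like cells, at 36.0% (35.9 to 36.2), and lowest in neutrophil-like cells, at 5.99% (5.95 to 6.03). Dendritic cell-like cells had 26.1% (26.0 to 26.1), NK and innate lymphoid-like cells 25.8% (25.7 to 26.0) and T lineage-like cells 24.1% (24.0 to 24.2). Monocyte-like cells had 23.8% (23.7 to 23.8) and macrophage-like cells 19.4% (19.3 to 19.5). The class named on the label thus had the second lowest share of the 7 large classes, and the B lineage-like share was 6.01 times the neutrophil-like share. A minority of cells raised the neutrophil-like value: 50 of the 502 cells lay above 10%, and the median cell had 2.74%. Between cell medians, 36.9% in B lineage-like and 2.74% in neutrophil-like cells, the ratio was 13.5. Neighbours in this order lay outside each other's counting intervals, but the middle of the order depended on the measure. By cell medians T lineage-like cells (19.8%) lay below monocyte-like cells (23.4%). The same held with abundant genes left out of the denominator, as described below (26.5% and 28.4%). At clustering resolution 1.0 the dendritic cell-like share was 24.8%, below that of NK and innate lymphoid-like cells (25.8%). No biological replicate shows how far a class moves between animals. Among the small classes, mast cell and basophil-like cells had 20.8% and plasma cell-like cells 8.66%, on 11 and 10 cells.

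**Figure D1:**
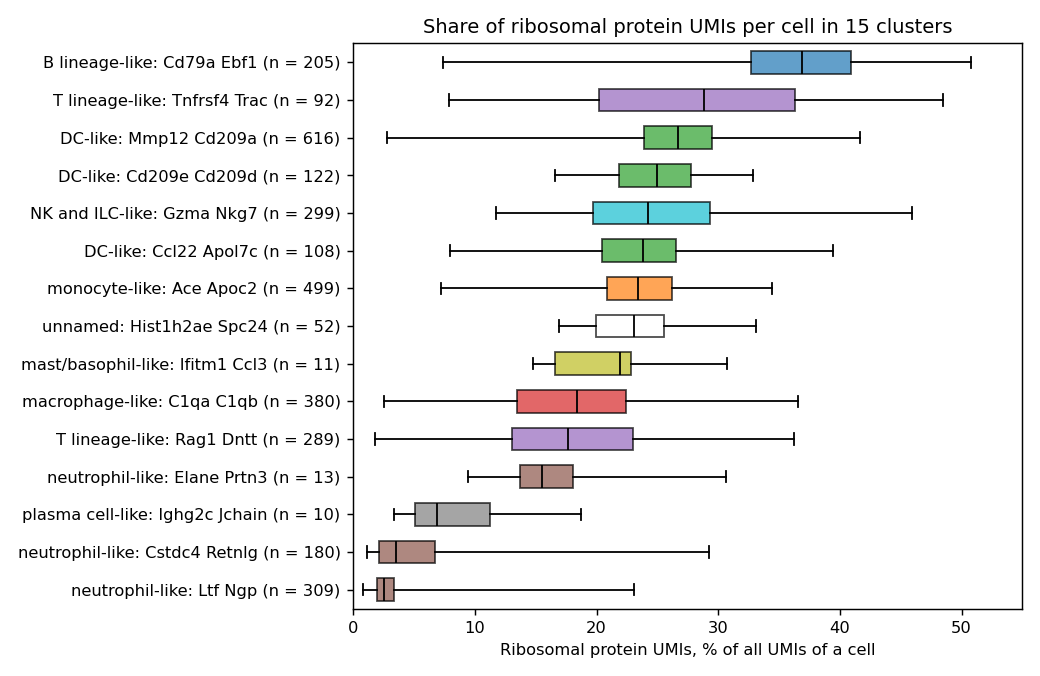
Share of ribosomal protein UMIs in single cells (x axis, % of all UMIs of a cell) for 15 clusters, each named by its class and 2 leading genes with its number of cells. Boxes span the quartiles, the line in a box is the median, whiskers reach the lowest and highest cell and colours stand for the class; the Ltf neutrophil-like cluster sits lowest (median 2.49%) and the B lineage-like cluster highest (median 36.9%).

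Single cells ran from 0.797% to 50.8%. The middle range of the B lineage-like cells (quartiles 32.7% and 40.9%) and that of the neutrophil-like cells (2.02% and 4.56%) did not overlap, although single cells did. A neutrophil-like cell held a median of 48 ribosomal protein UMIs at a median depth of 1748 UMIs. A B lineage-like cell held 589 at a depth of 1599. The plot of shares by cluster shows that classes were not uniform within.

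The T lineage-like class held a cluster of 289 cells led by Rag1 and Dntt, the recombination genes of immature thymocytes, and a cluster of 92 cells led by Tnfrsf4 and Icos, with Ctla4 among its leading genes, which are receptors of activated and regulatory T cells. The Rag1 cluster had 22.9% (cell median 17.6%) and the Tnfrsf4 cluster 30.7% (28.8%). Among dendritic cell-like cells, the cluster led by Ccl22, Ccr7 and Fscn1, genes of mature migrating dendritic cells, had 23.5%. The clusters led by Mmp12 and Cd209a and by Cd209e had 26.6% and 25.1%. At resolution 1.0 only groups of 125 and 141 cells kept the conventional name. The same rule named 358 cells led by Gm34680 and Siglech, with Xcr1 among the leading genes, plasmacytoid dendritic cell-like (27.8%). In these, 7 conventional and 3 plasmacytoid markers were raised. Another 283 cells led by Cxcl9 and Ccl17 had no class name (24.0%). Dendritic cell-like values below cover all 846 cells of the class.

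At a finer clustering resolution only groups of 80 and 190 cells were named macrophage-like, against 380 cells in the class, and their shares differed. The other cells of the class are not covered by these values. The group led by Gdf15 and Vcam1, with the iron and red pulp macrophage genes Spic and Slc40a1 among its leading genes, had 15.8% over 80 cells (median 10.7%). The group led by Ccl12 and Pf4, with the C1q genes among its leading genes, had 19.9% over 190 cells (median 18.4%). Both held fewer ribosomal protein UMIs per total than the monocyte-like groups at the same resolution, with 24.0% over 415 cells and 21.7% over 73 cells led by Cd300e and Ace.

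Neutrophil-like cells formed 3 clusters. The cluster led by Ltf, Ngp and Camp, genes of secondary granules made in late bone marrow stages, had 4.65% over 309 cells (cell median 2.49%). The cluster with Retnlg and Cxcr2, genes of circulating neutrophils, had 5.43% over 180 cells (cell median 3.52%). The third, led by the primary granule genes Elane, Prtn3 and Mpo, had 16.2%, but it held only 13 cells with a median of 9770 UMIs, and eosinophil and immunoglobulin genes were also among its leading genes. Without it the neutrophil-like share was 4.80%.

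S100a8 and S100a9, which encode the main cytosolic proteins of neutrophils, made up 36.0% of the UMIs of neutrophil-like cells. In the other 6 large classes they made up 0.0543% to 0.276%. With mitochondrial genes and 35 other abundant genes taken out of the denominator in all classes, the neutrophil-like share was 12.7%, still the lowest of the 7, and the B lineage-like share was 41.6%, still the highest. On this denominator the ratio of the B lineage-like to the neutrophil-like share was 3.29, against 6.01 on all UMIs.

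Depth moved with the share inside some classes. Spearman's rho over cells was 0.532 in NK and innate lymphoid-like, 0.467 in macrophage-like and 0.370 in T lineage-like cells, and -0.015 in dendritic cell-like cells. These are descriptions over 299, 380, 381 and 846 cells that share 1 library, and share and depth have the total count in common. In the Rag1 cluster the 191 cells under 2000 UMIs had 15.3%, while the 83 deeper cells in the dividing range, defined below, had 25.1%. The part of depth, and of free RNA in the suspension, in the class shares was not tested.

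The ratio of large to small subunit UMIs varied far less than the share. It was 1.21 over all kept cells and ranged from 1.16 (1.15 to 1.18) in B lineage-like to 1.24 (1.22 to 1.26) in NK and innate lymphoid-like cells. Neutrophil-like cells, with the lowest share, had 1.22, the same as macrophage-like cells. The T lineage-like ratio was 1.06 times the B lineage-like ratio (1.04 to 1.08). Both subunits were therefore low together in neutrophil-like cells and high together in B lineage-like cells.

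A small group of genes led the counts. Rps29, a small zinc-binding protein of the small subunit (chr12:69157722-69159186, minus strand), had the most UMIs, 93389 (10980 CPM), or 5.02% of all ribosomal protein UMIs. Rps28 with 7696 CPM, Rpl41 with 6602 CPM and Rpl39 with 6338 CPM followed, then Rpl37a, Rps24, Rps27, Rpl37, Rps27a (which encodes ubiquitin fused to a small subunit protein) and Rpl38. UMIs from this 3′ chemistry count mRNA ends and are not scaled by transcript length. The annotated mRNAs of these 10 genes ran from 345 to 1613 bases, with a median of 570 against 756 over the 80 members above 50 CPM, and across those 80 genes the relation of length and UMIs was weak (Spearman's rho -0.222, a description). These 10 genes made up 29.6% of the ribosomal protein UMIs. 8 genes were in the top 10 of all 7 large classes, and 15 were in the top 10 of any.

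The level of Rps29 was lowest in neutrophil-like cells, at 3088 CPM, and highest in B lineage-like cells, at 15559 CPM. Its share of the ribosomal protein UMIs stayed between 4.32% in B lineage-like and 5.59% in macrophage-like cells. The ranking of all members was close between classes, with Spearman's rho of 0.930 to 0.985 over the 21 pairs of classes. That is a description across genes, which share a library and are not independent. Divided by the ribosomal protein UMIs of the class, the median member differed by 0.45 on the log2 scale between its highest and lowest class. Of the 80 members above 50 CPM, 48 differed by less than 1.5-fold and 7 by 2-fold or more.

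**Figure D2:**
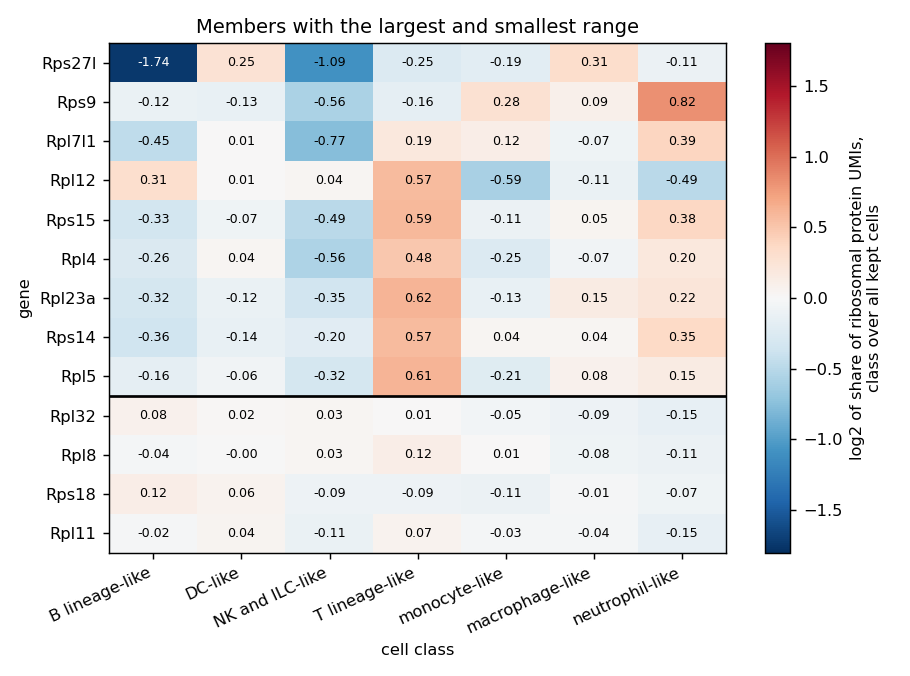
Share of single genes within the ribosomal protein UMIs of 7 classes (x axis), as log2 of the share in a class over that in all kept cells, for members with the largest and, under the line, with the smallest range. Red is higher and blue lower; Rps27l is lowest in B lineage-like cells (-1.74) and Rps9 highest in neutrophil-like cells (0.82), while those under the line stay near 0.

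Rps27l had the largest range. It is a close paralog of Rps27 and a known target gene of p53. It took 0.343% of the ribosomal protein UMIs in macrophage-like cells (0.319 to 0.369), 0.330% in dendritic cell-like cells and 0.0831% (0.0691 to 0.0991) in B lineage-like cells. The difference between the first and the last was 2.05 on the log2 scale.

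Rps9, a protein of the small subunit body (chr7:3703993-3706897, plus strand), took 2.45% (2.34 to 2.56) of the ribosomal protein UMIs in neutrophil-like cells and 1.68% in monocyte-like cells. In NK and innate lymphoid-like cells it took 0.939% (0.875 to 1.01). Its share of all UMIs was nevertheless lower in the neutrophil-like than in the NK and innate lymphoid-like cells, by 0.73 on the log2 scale, with the whole set low there. The high share was seen in both larger neutrophil-like clusters, with 2.78% in the Ltf cluster and 3.42% in the Retnlg cluster.

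Of the 10 members with the largest range, 7 were highest in T lineage-like cells and 6 lowest in NK and innate lymphoid-like cells. Being highest in T lineage-like cells was not particular to them, since Rpl8 and Rpl11, with small ranges, were also highest there. Rpl7l1, among these 10 and among the members past 2-fold, rested on few counts. It had 25 UMIs in neutrophil-like and 12 in NK and innate lymphoid-like cells, its highest and lowest class. Rps14, which sits at the decoding platform of the small subunit, took 1.05% (1.01 to 1.10) in T lineage-like and 0.549% (0.512 to 0.588) in B lineage-like cells. Rpl5, which binds the 5S rRNA and, when free, the p53 regulator Mdm2, took 0.303% (0.278 to 0.328) in T lineage-like and 0.160% (0.134 to 0.189) in NK and innate lymphoid-like cells. Rps15, Rpl4 and Rpl23a were likewise highest in T lineage-like cells, with log2 ranges of 0.96 to 1.07. Rpl12, a protein of the stalk base, took 0.475% in T lineage-like and 0.213% in monocyte-like cells.

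Within the T lineage-like class these high shares belonged to the Rag1 cluster. There Rps14 took 1.12% (1.07 to 1.18), against 0.749% (0.663 to 0.843) in the Tnfrsf4 cluster. Rpl23a took 0.315% (0.287 to 0.344) against 0.150% (0.113 to 0.196), and Rpl5 0.326% (0.298 to 0.356) against 0.205% (0.161 to 0.257). Rpl12 was close in both, at 0.483% and 0.443%, with overlapping intervals.

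The neutrophil-like clusters differed along the same genes. Rps14 took 1.07% (0.978 to 1.17) in the Ltf cluster and 0.772% (0.623 to 0.945) in the Retnlg cluster. Rpl4 took 0.311% (0.261 to 0.368) and 0.124% (0.0697 to 0.205), and Rps20 1.67% and 0.838%. Rps27 went the other way, with 2.53% (2.38 to 2.68) in the Ltf cluster and 5.59% (5.19 to 6.02) in the Retnlg cluster. Rps27 was also high in the B lineage-like (3.82%) and NK and innate lymphoid-like cells, and low in the Rag1 cluster (2.09%).

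Among the members with the smallest range were Rpl11, Rps18, Rpl8 and Rpl32. Rpl32, for example, ran from 1.33% in neutrophil-like to 1.56% in B lineage-like cells. These genes kept nearly the same place in the pool while the pool itself differed 6.01-fold between those classes.

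Each class was next set against all other kept cells, gene by gene, on the log2 ratio of CPM with 10 CPM added to both sides. Genes with at least 15 UMIs in total and 10 CPM in either side entered, and a fold of 2 was the call. Rpl10l and Rpl39l entered no comparison, and Rpl3l, the only other member under 50 CPM, entered 3 of the 7. The classes are not replicated, so a call is a size and not a test.

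In neutrophil-like cells 80 of the 81 members that entered were lower by the fold of 2, where 28.7% of all genes that entered were, and 0 were higher (6.76% of all genes). The median of the members was -2.06, that of all genes -0.60. Among the lowest, Rpl12 had 137 CPM in neutrophil-like and 802 CPM in other cells (log2 ratio -2.47), and Rpl10a 322 and 1829 CPM (-2.47). The smallest deficit among members above 50 CPM was that of Rps9, with 1466 and 3322 CPM (-1.17). Rpl7l1 followed, with 19.4 and 60.4 CPM (-1.26), then Rpl9 (-1.46). Rpl7l1 had only 25 UMIs in neutrophil-like cells. The 10 CPM added to both sides shrinks its ratio, so its place in this order rests on that setting. The exception among the 81 was Rpl3l. With median-of-ratios scaling, which moves the median of all genes to -0.02, 57 members were lower and 1 higher, and their median was -1.18.

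In B lineage-like cells 7 of 80 members were higher by the fold of 2, where 4.19% of all genes were, and 1 was lower (11.9% of all genes). Only 1 member had a ratio below 0, and the median was 0.70, against -0.11 for all genes. Rps27 had 13768 CPM in B lineage-like and 5359 CPM in other cells (log2 ratio 1.36). Rps20 had 9712 and 3869 CPM (1.33), and Rps7 5101 and 2379 CPM (1.10). Rpl12, Rpl36a, Rps24 and Rps13 were the other 4 past the fold, at up to 1.09, so that 5 of the 7 belong to the small subunit. The lower gene was Rps27l, with 299 and 622 CPM (-1.03). The count rests on the fold and the scaling, since many members lay just under it: it was 55 at a fold of 1.5, 40 when scaled by the UMIs of all other genes and 22 with median-of-ratios scaling.

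**Figure D3:**
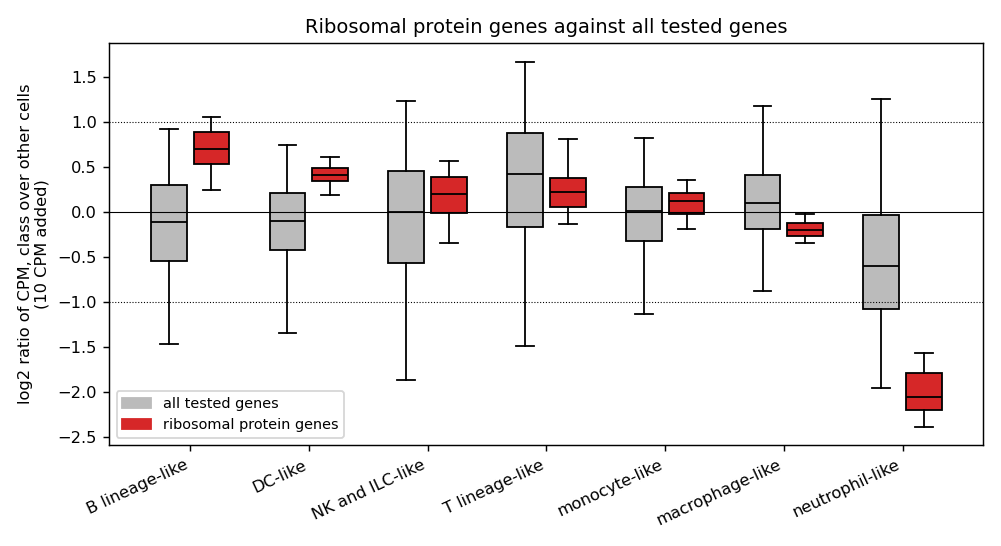
Log2 ratio of CPM in a class over all other kept cells (y axis, 10 CPM added) for ribosomal protein genes (red) and all genes that entered (grey) in 7 classes. Boxes span the quartiles with the median as a line, whiskers the 5th to 95th percentile, and dotted lines the fold of 2; the red boxes are narrower than the grey in every class and lie highest in B lineage-like (median 0.70) and lowest in neutrophil-like cells (median -2.06).

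In the other 5 classes hardly any member reached the fold of 2, and the only one that did was Rpl3l. Dendritic cell-like cells had 0 higher and 1 lower of 81 (2.9% and 8.57% of all genes), with a member median of 0.41. Rps27l had 861 and 460 CPM there (log2 ratio 0.89). Monocyte-like cells had 1 higher and 0 lower of 81 (3.28% and 6.54% of all genes), with a median of 0.12. In that class Rps9 lay highest among members above 50 CPM, with 4002 and 2898 CPM (0.46), and Rpl12 lowest, with 506 and 731 CPM (-0.52).

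Macrophage-like cells had 0 members past the fold of 2 in either direction (6.8% of all genes higher and 3.96% lower). Their member median was -0.20, against 0.10 for all genes, and 3 of 80 members had a ratio above 0. Rpsa, a small subunit protein also known as the laminin receptor precursor, had 2524 and 3501 CPM (log2 ratio -0.47). Rps27l (0.16), Rplp1 of the stalk (0.08) and Rpl7a (0.01) were the 3 above 0. Members therefore lay slightly and evenly below other cells in this class.

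NK and innate lymphoid-like cells had 0 members past the fold of 2 (7.63% of all genes higher and 15.2% lower), with a median of 0.20. Rps27 had 10339 and 5590 CPM (log2 ratio 0.89), Rpl22l1 1293 and 793 CPM (0.70), and Rps27l 337 and 617 CPM (-0.85). T lineage-like cells also had 0 (19.3% of all genes higher and 10.2% lower). Their member median was 0.22, below the 0.42 of all genes, and with median-of-ratios scaling it was -0.40, so the direction of the set in this class depends on the scaling. Rpl13a lay highest there, with 1388 and 714 CPM (0.95), followed by Rpl23a (0.84) and Rpl5 (0.83).

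Some members are paralogs of another member. Rps27l (chr9:66946086-66949516, plus strand) had 861 CPM in dendritic cell-like, 666 in macrophage-like, 575 in monocyte-like and 560 in T lineage-like cells, then 337 in NK and innate lymphoid-like, 299 in B lineage-like and 154 in neutrophil-like cells. The counting intervals of the monocyte-like and T lineage-like levels overlapped, as did those of the NK and B lineage-like levels. Its parent Rps27 (chr3:90212522-90213651, minus strand) was highest in B lineage-like cells, at 13768 CPM (13413 to 14130).

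The balance of the pair also differed between classes. Per 100 Rps27 UMIs there were 14.0 Rps27l UMIs (12.9 to 15.1) in macrophage-like, 13.6 in dendritic cell-like and 10.4 (9.39 to 11.5) in T lineage-like cells. There were 3.26 (2.67 to 3.95) in NK and innate lymphoid-like and 2.17 (1.81 to 2.60) in B lineage-like cells. The macrophage-like balance was 6.42 times the B lineage-like balance (4.97 to 8.35).

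Inside classes the pair also varied. The Ccr7 and Fscn1 dendritic cell-like cluster had the highest Rps27l level of all 15 clusters, 1677 CPM (1534 to 1829), or 20.5 per 100 Rps27 UMIs, against 589 CPM and 8.25 per 100 in the Cd209e cluster. The Rag1 cluster had 12.6 per 100 and the Tnfrsf4 cluster 3.72. Reads of Rps27 and Rps27l, and of the annotated copy Rps27rt (51.5 CPM over all kept cells), could be divided between them in ways the counts do not show.

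**Figure D4:**
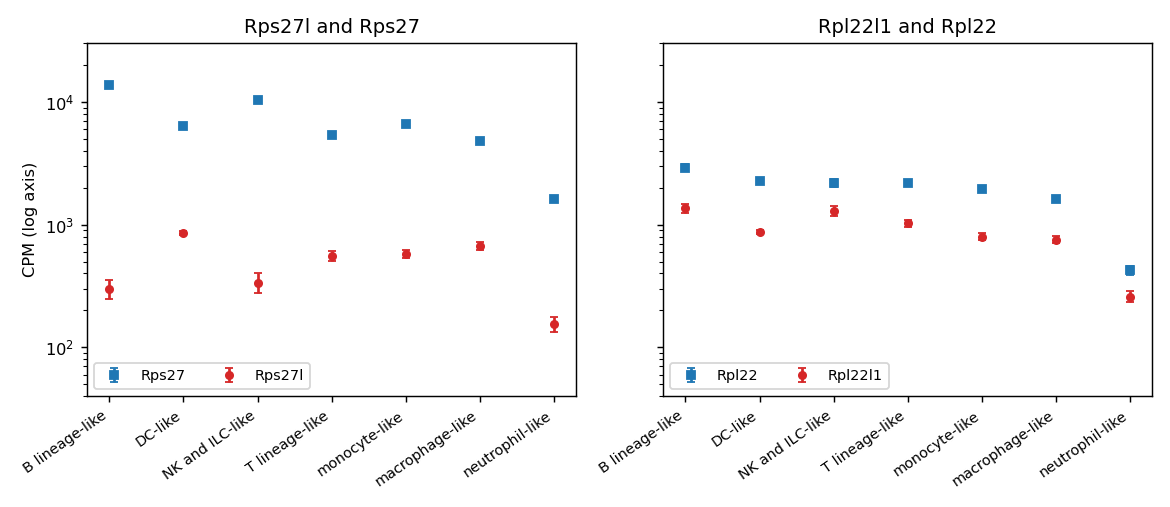
Levels of 2 paralog pairs in 7 classes (y axis, CPM on a log axis): Rps27 and Rps27l on the left, Rpl22 and Rpl22l1 on the right, parents as blue squares and paralogs as red circles. Bars are exact 95% Poisson intervals; the gap between Rps27 and Rps27l is widest in B lineage-like cells (13768 and 299 CPM), whereas Rpl22l1 stays closer to Rpl22 in all 7 classes.

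Rpl22 binds RNA besides its place in the large subunit and is known to be needed for the development of αβ T cells in the thymus. Its paralog Rpl22l1 kept a nearer balance than Rps27l. Rpl22 had 2921 CPM in B lineage-like, 2202 in T lineage-like and 426 in neutrophil-like cells. Rpl22l1 had 1359 CPM in B lineage-like, 1293 in NK and innate lymphoid-like, 1022 in T lineage-like and 259 in neutrophil-like cells. Per 100 Rpl22 UMIs there were 60.9 Rpl22l1 UMIs (53.0 to 70.0) in neutrophil-like and 59.7 (52.7 to 67.5) in NK and innate lymphoid-like cells, whose intervals overlap. T lineage-like cells had 46.4 (42.6 to 50.5), monocyte-like cells 41.3 (38.1 to 44.7) and dendritic cell-like cells, the lowest of the 7 classes, 38.5 (36.8 to 40.2). Among the clusters above 50 cells the lowest was that of Ccr7 and Fscn1, with 28.8, and the highest were the Ltf neutrophil-like cluster, with 65.3, and the unnamed dividing cluster, with 61.3.

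The remaining paralogs were rare. Rpl3l, known from heart and skeletal muscle, had 70 UMIs, of which 31 were in monocyte-like cells (28.0 CPM, 19.0 to 39.8) and 24 in neutrophil-like cells (18.6 CPM, 11.9 to 27.7). It had 0 UMIs in NK and innate lymphoid-like and B lineage-like cells, with upper interval ends of 11.5 and 8.91 CPM. Msrb1, a methionine sulfoxide reductase gene on the same strand, starts 498 bases beyond the annotated end of Rpl3l and was highest in the same classes, at 1024 CPM in monocyte-like and 1254 CPM in neutrophil-like cells. Its part in the Rpl3l counts was not tested. Rpl39l, known from male germ cells, had 12 UMIs, 5 of them in T lineage-like cells. Rpl10l, the germ cell partner of the X-linked Rpl10, had 0, which allows up to 0.434 CPM over all kept cells.

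Most members shared a single profile. Over the 15 clusters, the log2 CPM of a member had a median Pearson r of 0.97 with the sum of the others, and 70 of the 80 members above 50 CPM reached 0.9. The lowest were Rpl7l1 (0.44), which is known from ribosome biogenesis, Rps27l (0.56) and Rpl22l1 (0.72). Their counts were close to 0 in some small clusters. Rpl7l1 had 0 UMIs in the mast cell and basophil-like, 2 in the plasma cell-like and 2 in the Elane cluster. Rps27l and Rpl22l1 had 1 UMI each in the mast cell and basophil-like cluster. The part of such low counts in these r values was not tested. Among 2300 other genes above 50 CPM, the most similar to the sum was Eef1a1 (0.98), the factor that brings aminoacyl-tRNA to the ribosome, and among those next in order were Eef1d, Eef1b2, Polr1d, Naca, Gm10076, Micos13, Chrac1 and Tpt1 (0.94). The points share a library and differ strongly in depth, so these values are descriptions.

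Fau, Rpl36al and Rack1, which the symbol rule left out, were like the members lowest in neutrophil-like cells. Not all of them were highest in B lineage-like cells. Fau encodes a ubiquitin-like protein fused to a small subunit protein. It had 11745 CPM in B lineage-like, 10844 in monocyte-like, 8812 in dendritic cell-like and 3756 in neutrophil-like cells. Rpl36al had 1711 CPM in monocyte-like, 1258 in B lineage-like and 370 in neutrophil-like cells, and so was not highest in B lineage-like cells. Rack1, a scaffold on the small subunit, had 1017 CPM in T lineage-like, 881 in B lineage-like and 167 in neutrophil-like cells.

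Lists of translation factors and other TOP genes, of ribosome biogenesis genes and of mitochondrial ribosomal proteins were examined beside the members. In neutrophil-like cells 24 of 25 translation genes were lower by the fold of 2, with a median of -1.79, and 0 were higher. Eef1a1 had 410 CPM there and 2084 CPM in other cells (log2 ratio -2.32). Tpt1 had 645 and 1971 CPM (-1.60). Npm1, which encodes a nucleolar protein and is in the same list, had 82.3 and 589 CPM (-2.70). Of 29 biogenesis genes 23 were lower (median -1.42), among them the nucleolar gene Ncl, with 60.6 and 350 CPM (-2.35). Of 75 mitochondrial ribosomal protein genes 45 were lower (median -1.14). The 28.7% of all genes lower there is the background of these counts too.

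Regulators did not share that pattern. Of 21 in neutrophil-like cells, 2 were lower (Myc with 3 UMIs and Mycl with 0) and 1 higher. The higher was Mxd1, an antagonist of Myc, with 416 CPM in neutrophil-like and 35.7 CPM in other cells (log2 ratio 3.22). Larp1, which binds TOP mRNAs, had 27.2 and 59.2 CPM (-0.90). Of 19 regulators in B lineage-like cells, 1 was higher and 1 lower (4.19% and 11.9% of all genes), with a median of -0.06. The higher was Myc, an activator of ribosome genes, with 70.0 CPM against 10.3 CPM in other cells (1.98). The lower was Mxd1, with 9.66 against 97.6 CPM (-2.45). A link of either to the ribosomal protein share was not tested.

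**Figure D5:**
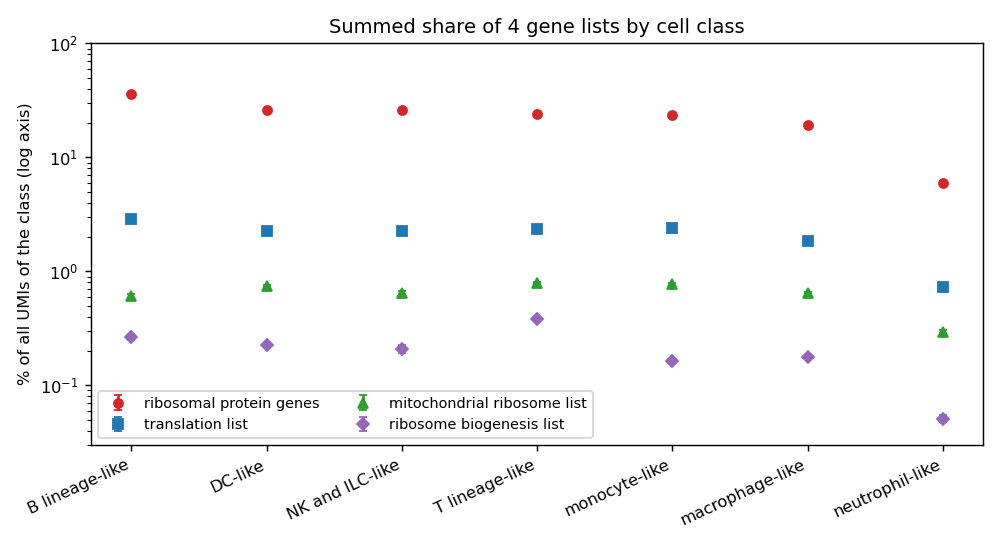
Summed share of 4 gene lists in 7 classes (y axis, % of all UMIs of the class on a log axis; bars are exact 95% binomial intervals, mostly smaller than the symbols). Neutrophil-like cells are lowest on all 4 lists, B lineage-like cells highest for ribosomal proteins (36.0%) and translation genes (2.87%), and T lineage-like cells highest for biogenesis genes (0.379%) and mitochondrial ribosomal proteins (0.793%).

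In T lineage-like cells biogenesis genes reached the fold of 2 more often than the members. With 0 of 80 members past the fold of 2, 10 of 32 biogenesis genes and 7 of 25 translation genes were higher and 0 of either list lower, where 19.3% of all genes were higher. Ncl had 969 and 240 CPM (log2 ratio 1.97). Nop58 had 186 and 51.9 CPM (1.66), and Nop56 112 and 29.8 CPM (1.61). Both are core proteins of the particles that methylate rRNA. Npm1 had 1159 and 447 CPM (1.36), and the elongation factor gene Eef2 611 and 287 CPM (1.07). All 24 cell cycle genes were higher in this class as well. The median of the biogenesis list was 0.74 and that of the translation list 0.58, against 0.42 for all genes. Median-of-ratios scaling, under which the member median changed direction in this class, was not applied to these lists.

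Dividing cells were compared with others inside a class. Each cell was thinned to 2000 UMIs to count the UMIs of 24 cell cycle genes, and cells with at least 3 were set against cells with 0, a range cut from a count and not a cell type. The shares were then taken from all UMIs of these cells, so that deeper cells weigh more. In T lineage-like cells the 87 dividing cells had a share of 25.4% (25.3 to 25.5) and the 15 others 27.7% (27.3 to 28.1), a difference of -2.32 percentage points, with 270 shallower cells left out. The difference was larger by other measures: -5.06 from the thinned UMIs (22.8% and 27.9%), -5.50 between cell medians, -4.50 without abundant genes in the denominator and -6.94 when cells were thinned to 1000 UMIs. All but 4 of the dividing cells were in the Rag1 cluster, where the shares were 25.1% and 26.0% on 83 and 8 cells. Cell medians inside that cluster were 20.6% in the dividing and 25.1% in the other cells, so the size of the difference there depended on the measure. The part of the cluster in the difference was not tested.

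In B lineage-like cells the 8 dividing cells had 28.7% and the 58 others 38.2%. In macrophage-like cells the shares were 18.6% in 15 and 20.6% in 175 cells, and in monocyte-like cells 22.9% in 22 and 24.2% in 175. Dendritic cell-like cells had 25.3% in 108 and 26.3% in 470, an order that turned under other clusterings (to a difference of 0.599 points at the finer resolution). Neutrophil-like cells went the other way, with 7.73% in 57 and 5.37% in 129 cells. Their cell medians were 4.54% in the dividing cells and 2.44% in those without a cell cycle UMI. This class includes the deep Elane cluster, with a share of 16.2% and a median of 9770 UMIs. The part of the Elane cluster in the neutrophil-like shares of this paragraph was not tested. From the thinned UMIs all 6 classes kept these directions, with 28.1% and 38.7% in B lineage-like and 6.66% and 4.50% in neutrophil-like cells. Cells with 1 or 2 cell cycle UMIs did not lie between the other 2 groups in every class. In pooled shares they lay above both in T lineage-like (29.1%, 9 cells), dendritic cell-like (26.5%), monocyte-like (24.3%) and neutrophil-like cells (9.17%). By cell medians they lay between the others in these classes, for example at 24.0% in monocyte-like cells (22.7% dividing and 24.2% without). The B lineage-like median of 40.9% lay above both (25.9% and 38.4%), and the macrophage-like median lay just below both. Dividing cells were deeper, with median depths of 6708 and 2833 UMIs in neutrophil-like, 5191 and 3371 in dendritic cell-like, 5157.5 and 2542.5 in B lineage-like and 3858 and 2724 in T lineage-like cells, and the part of depth was not tested.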

How the data were processed

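The files deposited by the authors hold unnormalized UMI counts of 2 libraries of sorted thymus cells, made with Cell Ranger 6.0.0 (2021) and 8.0.0 (2024) per the file headers. The submitters' processing notes name mm10. The annotation and the intron and strand settings are not given in the sources used here, so reads of the 22 members overlapped by a gene on the other strand, and of near-identical pseudogene copies (294 annotated names), may be divided in ways the counts do not show. The 2024 library gave depth only.

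In the 2021 library a cell needed 500 or more UMIs, 300 or more genes and a mitochondrial share of at most 10%, which 3188 of 3214 barcodes met. Scrublet in scanpy 1.11.5 called 3 doublets (0.0941%), which were removed, so that undetected doublets may remain. Counts without the 83 member genes were scaled to 10000, log-transformed and clustered (2000 variable genes, 30 principal components, 15 neighbours, Leiden in igraph 0.11.9, resolution 0.5). A cluster got a class name from at least 3 raised markers, with no other class ahead among its 10 leading genes, and none where cell cycle genes led as many. These names were rebuilt from the counts and may not be the study's own. Sums of counts per class gave shares with exact binomial intervals and CPM with exact Poisson intervals (scipy 1.17.1, numpy 2.4.6, pandas 2.3.3, Python 3.11.15). No p-value was computed, because only 1 library had gene names. UMIs limit the precision and the intervals leave out variation between animals.

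Gene coordinates come from GENCODE M21 and start windows from RefSeq, both on GRCm38. The named members are the 10 with most UMIs, the 10 most and 5 least variable within the ribosomal protein UMIs, the paralogs, and the 3 highest and 3 lowest per class, with the other members past a fold of 2. Some genes that these rules select are not reported here. The comparison was checked on simulated counts. Members, gene lists and markers were chosen with earlier results of these data known. Alternatives changed the cell filter, doublets, clustering, denominator, scaling, added CPM, fold and run length.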

Additional observations from a re-analysis of the deposited data

How the results depend on the processing

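Of the values with an alternative that answer a comparison, 68 stayed within their counting interval, or a count within 1.5 times, and 22 did not. Of 147 further values on single classes or genes, 73 stayed, 71 moved and 3 turned direction. The ratio of the B lineage-like to the neutrophil-like share, 6.01, was 7.56 with no cell filter, 8.04 with a stricter filter, 13.5 as a ratio of cell medians, 3.29 without abundant genes in the denominator, 5.83 with genes outside the symbol rule and pseudogenes added, and 7.50 without the 13 Elane cells. The 7 members higher in B lineage-like cells became 40 when scaled by other genes, 22 with median-of-ratios scaling and 55 at a fold of 1.5. The 2 calls in the other 5 classes became 1 with the stricter filter, with doublets kept, with members in the clustering and at resolution 1.0, then 0 with 50 CPM added and 22 at a fold of 1.5. Rps27l in macrophage-like over B lineage-like cells, 2.05 on the log2 scale, was 1.15 as a share of all UMIs, and Rps9 in neutrophil-like over NK and innate lymphoid-like cells turned from 1.38 to -0.73. The T lineage-like difference between dividing and other cells, -2.32 points, was -3.08 with the stricter filter, -5.50 as cell medians, -4.50 without abundant genes, -5.06 from thinned UMIs and -6.94 after thinning to 1000 UMIs. The dendritic cell-like difference of -0.95 turned to 0.147 with members in the clustering and 0.599 at resolution 1.0. The share of members with a pyrimidine run was 66.7% for a run of at least 6, against 40.1% of all genes. The count of members lower in neutrophil-like cells stayed between 57 and 80. The cause of these shifts was not tested. Removing the 6% of cells with the highest doublet scores, or clustering with the members, left no cluster named B lineage-like, and the former gave no T lineage-like value for dividing cells. Thinning to 1000 UMIs, the shares from thinned UMIs and leaving out the 13 cells were added after seeing the data. No paired analysis was possible because only 1 library carried gene names, which also left no replicate to leave out.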

Other observations

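Companion genes also passed the fold of 2 outside the neutrophil-like, T and B lineage-like cells. Of 24 cell cycle genes, 17 were lower in monocyte-like, 17 in macrophage-like, 20 in NK and innate lymphoid-like and 4 in dendritic cell-like cells. Of all genes 6.54%, 3.96%, 15.2% and 8.57% were lower there. Of 19 regulators in NK and innate lymphoid-like cells, 4 were higher and 1 lower, against 7.63% and 15.2% of all genes. The translation, biogenesis and mitochondrial lists had at most 3 genes called in either direction in these classes. In monocyte-like cells the mitochondrial ribosomal protein gene Mrpl33 had 1050 CPM, against 503 CPM in other cells (log2 ratio 1.05), and the nucleolar gene Ncl 139 against 331 CPM (-1.20). In dendritic cell-like cells Mycl, a Myc family gene known from dendritic cells, had 20.6 against 2.22 CPM (1.33). In NK and innate lymphoid-like cells Rps6kb2, a ribosomal protein S6 kinase, had 53.1 against 13.9 CPM (1.40), and Eif4ebp1, a translation repressor under mTOR control, had 12.5 against 117 CPM (-2.49). Eif4ebp1 also had 32.1 against 121 CPM in T lineage-like cells (-1.64). These genes come from the companion lists and were picked here after their values were seen.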
